A study of Bos taurus with 14 samples.

Results

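Milk fat leaves the mammary epithelial cell as a droplet wrapped in apical cell membrane, and 5 genes that serve this step were followed here: BTN1A1, XDH, PLIN2, MFGE8 and MUC1. They were chosen by gene symbol, as every probe set annotated with exactly 1 of these symbols. This gave 6 of the 24016 probe sets tested, which stand for 5 of the 9155 genes named on the array. BTN1A1 (gene ID 282157), PLIN2 (280981), MFGE8 (281913) and MUC1 (281333) have 1 probe set each. XDH (280960) has 2, called here probe set 1, the one of the higher mean, which leads for the gene, and probe set 2.

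The tissue was mammary gland taken by biopsy from dry Holstein cows. Per the labels, milking had ended about 60 days before the predicted calving, and cows were then assigned at random to a photoperiod for the dry period. Long days (LD) had 16 h light and 8 h dark, and short days (SD) had 8 h light and 16 h dark. Biopsies came from day -24 and day -9 relative to calving, which gave 3 arrays of LD and 3 of SD at day -24, and 4 of LD and 4 of SD at day -9. All 4 groups share the breed, the end of milking and the late stage of pregnancy, so no group is a lactating gland. The labels give neither the age of the cows nor whether 1 animal was sampled on both days, so p-values measure only the spread between these arrays. The questions asked of the genes are whether their transcripts differed between photoperiods at each day, whether they differed between days in each photoperiod, and whether both day differences differed.

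As background, triacylglycerol is made at the endoplasmic reticulum and gathers in droplets coated by PLIN2. Butyrophilin, the product of BTN1A1, sits in the apical membrane and binds xanthine oxidoreductase, the product of XDH. This complex is known to be needed for the droplet to be enveloped and released as a milk fat globule. Lactadherin, from MFGE8, binds phosphatidylserine on the outer face of membranes and bridges them to integrins, and the mucin MUC1 covers the globule and the apical surface with a glycosylated coat. All 5 proteins are known constituents of the globule membrane of milk.

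Array medians lay between 6.43 and 6.61 on the log2 scale, and pairs of arrays correlated at between 0.95 and 0.992 across probe sets. The members lay at 7.34 or above on every array, so none fell under the median of its array. The 14 luminal epithelial markers had a mean signal between 9.36 and 10.25 per array, so epithelium was represented in every biopsy. The 9 measured adipocyte markers averaged between 5.32 and 6.41, and the 9 macrophage and dendritic markers between 8.55 and 9.62. In tissue samples such as these, fewer cells of a type and less RNA per cell cannot be told apart. As a sign of RNA quality, the log2 signal for the 3-prime end minus that for the 5-prime end was averaged over 5 control transcripts, and this mean lay between 0.80 and 1.33 per array. It was highest in SD day -24 replicates 3 (1.33) and 2 (1.26). The transcripts did not run alike: the difference was below 0 on every array for ef1a (-1.92 to -1.37) and GST (-0.99 to -0.43), and largest for eIF-4E (3.16 to 4.6). Actin was left out of the mean, and its difference was highest, 1.02, on LD day -9 replicate 3, where the mean was lowest.

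No member differed between photoperiods or days after adjustment over all probe sets, and none of the 24016 probe sets did (0% called in each of the 7 comparisons, limma, Benjamini-Hochberg, adjusted p under 0.05). The adjusted p of the members lay between 0.643 and 1. Without adjustment, only 1 value of a member had a p under 0.05, that of MUC1 between days averaged over photoperiods. What the data do show is where each gene lay, how tightly its level could be bounded, and which biopsies departed from the rest. MUC1 varied most, over an 11.6-fold range, while XDH stayed within 1.64-fold by probe set 1 but ranged over 2.23-fold by probe set 2.

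**Figure D1:**
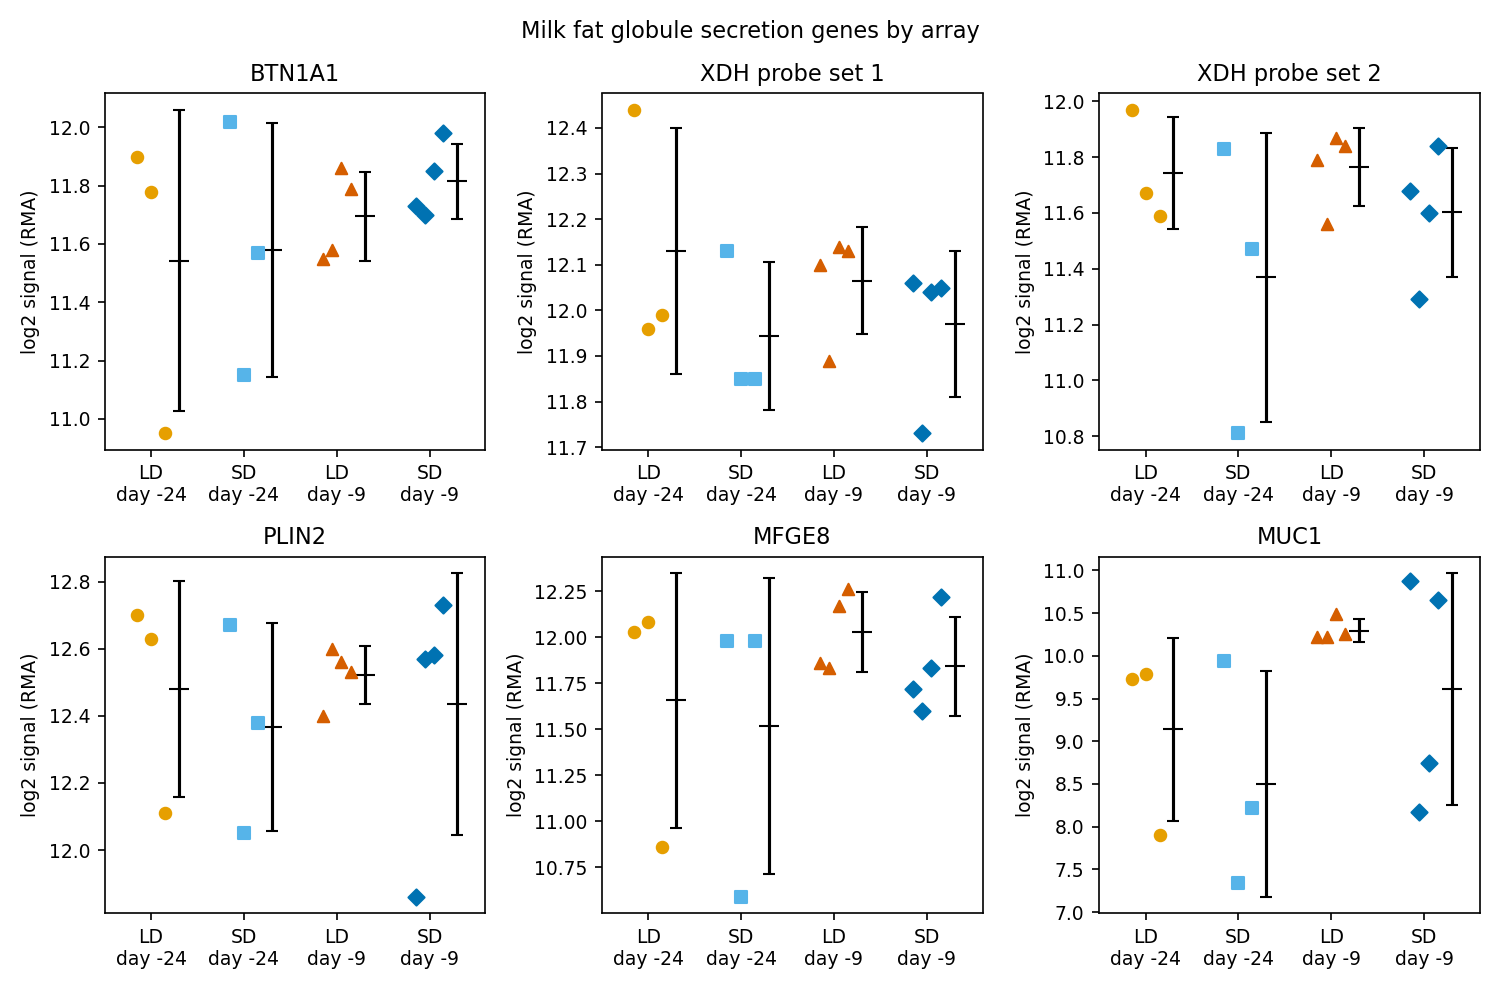
Log2 signal of the 6 probe sets (vertical axes, each with its own range) in the 4 groups (horizontal axes), with 1 point per array and the mean with its standard deviation as a bar beside the points. The day -24 groups hold the lowest arrays of BTN1A1, MFGE8 and MUC1, and the 4 arrays of LD at day -9 lie close together for MUC1, between 10.22 and 10.49.

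BTN1A1, the membrane partner of the complex, had log2 values of 11.90, 11.78 and 10.95 in LD at day -24 and of 12.02, 11.15 and 11.57 in SD at day -24. At day -9 it had 11.55, 11.58, 11.86 and 11.79 in LD and 11.73, 11.70, 11.85 and 11.98 in SD. LD day -24 replicate 3 and SD day -24 replicate 2 were the lowest, with a gap of 0.39 to the other 12 arrays, and every pair of groups overlapped. Group means ran in the order LD day -24 (11.55 ± 0.52), SD day -24 (11.58 ± 0.43), LD day -9 (11.69 ± 0.16) and SD day -9 (11.82 ± 0.13; SD of 3, 3, 4 and 4 arrays), and no neighbours in this order differed beyond their spread. SD minus LD was 0.03 at day -24 (95% interval -0.50 to 0.56) and 0.12 at day -9 (-0.34 to 0.58). Day -9 minus day -24 was 0.15 in LD (-0.35 to 0.64) and 0.24 in SD (-0.26 to 0.73). The intervals thus reach at most 1.66-fold higher and 1.41-fold lower in these comparisons. Without LD day -24 replicate 3 the day difference in LD was -0.15, and the SD minus LD difference at day -24 was -0.26.

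XDH encodes an enzyme of purine breakdown that also acts as the binding partner of butyrophilin in globule release. By probe set 1 it read 12.44, 11.96 and 11.99 in LD and 12.13, 11.85 and 11.85 in SD at day -24. At day -9 it read 12.10, 11.89, 12.14 and 12.13 in LD and 12.06, 11.73, 12.04 and 12.05 in SD. LD day -24 replicate 1 stood above the other 13 arrays, with a gap of 0.30, and all pairs of groups overlapped. That array also had the lowest array median, 6.43, and the lowest array weight, 0.264. The means ran from 11.94 ± 0.16 (SD day -24) through 11.97 ± 0.16 (SD day -9) and 12.06 ± 0.12 (LD day -9) to 12.13 ± 0.27 (LD day -24), again without neighbours that differed beyond their spread. The SD of probe set 1 within groups, 0.176, was larger than that of 24.7% of probe sets, and its differences were bounded most closely among the member probe sets. SD minus LD was -0.19 at day -24 (-0.52 to 0.14) and -0.10 at day -9 (-0.38 to 0.19), and day -9 minus day -24 was -0.07 in LD (-0.38 to 0.24) and 0.03 in SD (-0.28 to 0.34). Without LD day -24 replicate 1, SD minus LD at day -24 was -0.03, and with array weights it was -0.01.

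Probe set 2 of XDH gave 11.97, 11.67 and 11.59 in LD and 11.83, 10.81 and 11.47 in SD at day -24. In the later biopsies it gave 11.79, 11.56, 11.87 and 11.84 in LD and 11.68, 11.29, 11.60 and 11.84 in SD. SD day -24 replicate 2 was the low array here, with a gap of 0.48 to the next. Probe set 1 exceeded probe set 2 by 1.04 on that array and by between 0.21 and 0.47 on the other 13, so both readings of the gene part on 1 biopsy. Across the 14 arrays they ranked the biopsies almost alike (Pearson r = 0.764, permutation p = 0.00274, Spearman rho = 0.956, permutation p = 1e-05, the smallest that the resampling can give). By probe set 2 the SD minus LD difference was -0.37 at day -24 (-0.85 to 0.11) and -0.17 at day -9 (-0.58 to 0.25). Both probe sets thus lay below 0 in SD minus LD at both days, with intervals that include 0. When any 1 array was left out, their sizes moved widely: probe set 1 ran from -0.28 to -0.03 at day -24 and from -0.15 to -0.02 at day -9, and probe set 2 from -0.60 to -0.09 and from -0.25 to -0.06. The day differences of probe set 2 were 0.02 in LD (-0.43 to 0.47) and 0.23 in SD (-0.22 to 0.68). Its SD within groups, 0.288, was larger than that of 62.8% of probe sets, so the small spread of probe set 1 does not hold for both.

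PLIN2, the coat protein of the droplet, had values of 12.70, 12.63 and 12.11 in LD and of 12.67, 12.05 and 12.38 in SD at day -24. At day -9 these were 12.40, 12.60, 12.56 and 12.53 in LD and 11.86, 12.57, 12.58 and 12.73 in SD. Its lowest array was SD day -9 replicate 1, which was not low for BTN1A1, followed by SD day -24 replicate 2 and LD day -24 replicate 3. Means lay at 12.37 ± 0.31 (SD day -24), 12.44 ± 0.39 (SD day -9), 12.48 ± 0.32 (LD day -24) and 12.52 ± 0.09 (LD day -9), groups overlapped in every pair, and neighbours did not differ beyond their spread. The difference of SD from LD was -0.11 at day -24 (-0.60 to 0.38) and -0.09 at day -9 (-0.51 to 0.34). That of day -9 from day -24 was 0.04 in LD (-0.42 to 0.50) and 0.07 in SD (-0.39 to 0.53). Each interval lies within 1.52-fold in either direction. The sign at day -9 rests on SD day -9 replicate 1, without which SD minus LD was 0.10.

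MFGE8, the lactadherin gene, gave 12.03, 12.08 and 10.86 in LD and 11.98, 10.59 and 11.98 in SD at day -24. The later values were 11.86, 11.83, 12.17 and 12.26 in LD and 11.72, 11.60, 11.83 and 12.22 in SD. Both low arrays of BTN1A1 were also the lowest of MFGE8, 0.74 or more under the other 12, which lay between 11.60 and 12.26. The order of means was SD day -24 (11.52 ± 0.80), LD day -24 (11.66 ± 0.69), SD day -9 (11.84 ± 0.27) and LD day -9 (12.03 ± 0.21), with overlap throughout and no neighbours apart beyond their spread. Day -9 exceeded day -24 by 0.37 in LD (-0.38 to 1.13) and by 0.32 in SD (-0.43 to 1.08), but without LD day -24 replicate 3 the first was -0.02 and without SD day -24 replicate 2 the second was -0.14. SD minus LD was -0.14 at day -24 (-0.94 to 0.67) and -0.19 at day -9 (-0.89 to 0.51). Leaving out SD day -24 replicate 2 moved the first of these to 0.33.

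MUC1, the transmembrane mucin, had values of 9.73, 9.79 and 7.90 in LD at day -24 and of 9.94, 7.34 and 8.22 in SD at day -24. At day -9 it had 10.22, 10.22, 10.49 and 10.25 in LD and 10.88, 8.17, 8.74 and 10.65 in SD. Cut at their widest gap, 0.99 in a range of 3.54, the arrays gave a lower set of 5, at 8.74 or below. The upper set held 9, at 9.73 or above. Any values have a widest gap, and that of MFGE8 was larger for its range (0.74 in 1.67). The cut thus does not show separate states of MUC1. The lower set held 1 array of LD and 2 of SD at day -24, and 2 arrays of SD at day -9, but none of LD at day -9. Its SD within groups, 1.067, exceeded that of 99.4% of probe sets, against a median of 0.244 over all.

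By group, MUC1 averaged 8.50 ± 1.32 (SD day -24), 9.14 ± 1.07 (LD day -24), 9.61 ± 1.36 (SD day -9) and 10.30 ± 0.13 (LD day -9), and neighbours in this order did not differ beyond their spread. In LD the 4 arrays of day -9 all lay above the 3 of day -24, by a difference of means of 1.15 (limma interval -0.39 to 2.70; 0.54 to 1.48 when any 1 array was left out). An exact two-sided permutation of the arrays gave p = 0.0286, the smallest that 3 against 4 arrays allow, and 0.686 after adjustment over the 24 such tests of the members. In SD the groups overlapped, at a difference of 1.11 (-0.44 to 2.65), which lay between 0.53 and 1.83 when any 1 array was left out. Averaged over photoperiods, day -9 lay 1.13 above day -24 (0.04 to 2.22), or 2.19-fold (1.03 to 4.67). In limma its unadjusted p was 0.0438 and its adjusted p 0.643. This average ran from 0.82 to 1.49 when any 1 array was left out, and it was 0.48 (unadjusted p = 0.401, limma) with the 3-prime to 5-prime difference as a covariate. SD minus LD was -0.64 at day -24 (-2.29 to 1.02) and -0.69 at day -9 (-2.12 to 0.74), so a difference of up to 4.89-fold lower in SD lies within the interval at day -24. When any 1 array was left out, the first ran from -1.36 to -0.06 and the second from -1.11 to -0.21, and with array weights they were -0.01 and -1.23. With the 3-prime to 5-prime covariate SD minus LD was -0.04 at day -24, and the day difference in SD was 0.06.

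**Figure D2:**
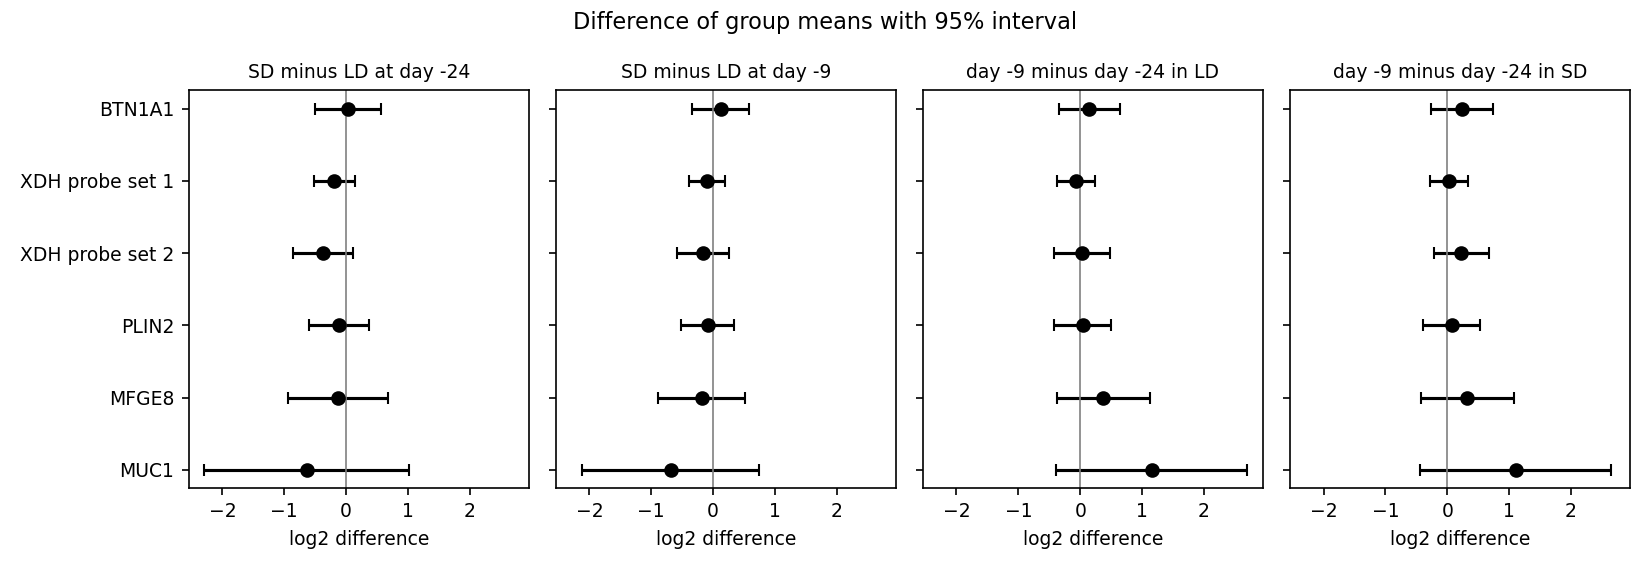
Difference of group means on the log2 scale (horizontal axes) with the 95% interval of the limma fit, for the 6 probe sets in each of the 4 comparisons of pairs of groups. Every interval includes 0, and those of MUC1 are the widest, reaching from -0.39 to 2.70 between days in LD.

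Set side by side, the 6 probe sets gave 1 difference above 0 and 5 below in SD minus LD at day -24, with a median of -0.16, against a median of 0.01 over all probe sets. At day -9 the split was also 1 above and 5 below, with a median of -0.13 against 0.00. Averaged over days it was again 1 and 5 (median -0.15 against 0.01 over all). For day -9 minus day -24, 5 lay above and 1 below 0 in LD (median 0.10 against 0.00), and 6 above and 0 below in SD (median 0.23 against -0.02). Averaged over photoperiods these counts were 5 and 1, with a median of 0.16 against 0.00. Both photoperiod comparisons and both day comparisons draw on the same 14 arrays and share several groups, so these counts are not separate pieces of evidence. The photoperiod by day interaction, the day difference in SD minus that in LD, lay above 0 for 4 and below for 2, between -0.05 and 0.21.

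Read against the whole array, 0 of the 6 had an unadjusted p under 0.05 in SD minus LD at day -24, where 2.42% of all probe sets did. Likewise it was 0 at day -9 (2.77%) and averaged over days (1.94%). Between days it was 0 in LD (7.47%), 0 in SD (4.56%) and 1 over both photoperiods (7.72%), and for the interaction 0 (4.15%). Groups that did not overlap occurred in 5.67% of all probe sets for SD minus LD at day -24, 2.46% at day -9, 8.98% for the days in LD and 5.9% for the days in SD, against 0, 0, 1 and 0 of the members.

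The same biopsies recurred among the low values. Over the 5 genes, with XDH taken by probe set 1, SD day -24 replicate 2 was among the 3 lowest arrays for 5 of 5 and LD day -24 replicate 3 for 4 of 5. At day -9, SD replicate 2 was among them for 3 of 5. SD day -9 replicate 4 was among the 3 highest for 4 of 5. The luminal marker mean was 9.77 in SD day -24 replicate 2 and 9.92 in LD day -24 replicate 3, in a range from 9.36 to 10.25. Only SD day -9 replicate 1, at 10.25, exceeded 9.92. A part of epithelial content in the low values was not tested. Both low biopsies had the lowest means of adipocyte markers, 5.32 and 5.43, of a list whose mean lay under the array median on every array. Their 3-prime to 5-prime differences were 1.26 and 1.12, and their part in the low values was not tested apart from the covariate fits.

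**Figure D3:**
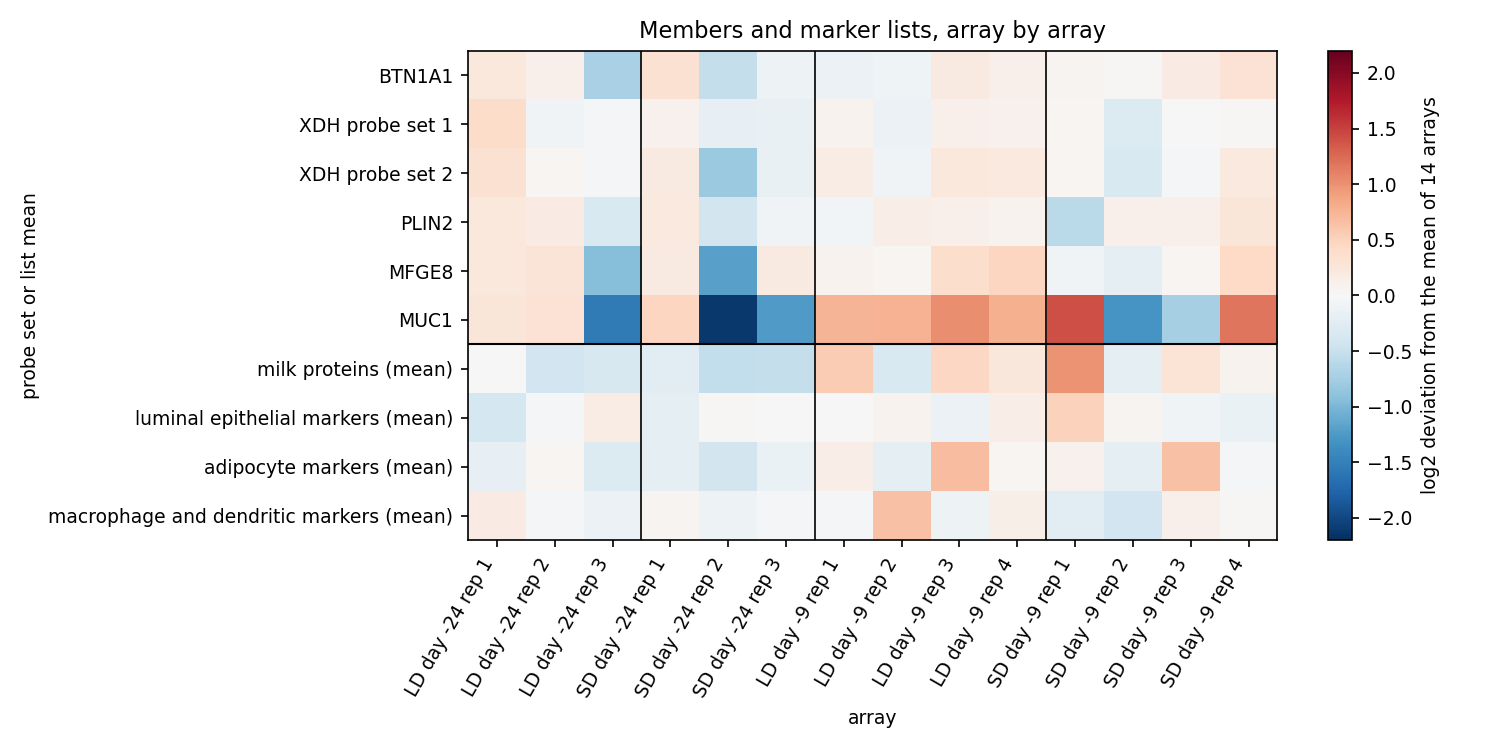
Deviation of each array from the mean of the 14 arrays on the log2 scale (colour; red above, blue below) for the 6 probe sets and, under the line, for the mean of 4 marker lists. SD day -24 replicate 2 and LD day -24 replicate 3 are blue for BTN1A1, PLIN2, MFGE8 and MUC1. Their luminal marker means, 9.77 and 9.92, lie within the range of the other arrays.

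Correlation between the genes was taken over the 14 arrays for 10 pairs, with p-values from permutation and adjusted over those pairs. BTN1A1 and MFGE8 went together most closely (Pearson r = 0.867, p = 0.00164, adjusted p = 0.0082, Spearman rho = 0.644, p = 0.0152, adjusted p = 0.0572). With each array taken as its deviation from its group mean, r was 0.91 (exact permutation within groups, p = 0.00149, adjusted p = 0.0149). Leaving out SD day -24 replicate 2 and LD day -24 replicate 3, the arrays farthest from the median of BTN1A1, gave r = 0.459, so the relation rests on those arrays. BTN1A1 and PLIN2 had r = 0.68 (p = 0.0123, adjusted p = 0.0305) and rho = 0.749 (p = 0.00259, adjusted p = 0.0259), and r = 0.441 without the same arrays.

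PLIN2 and MFGE8 had r = 0.685 (p = 0.0152, adjusted p = 0.0305) and rho = 0.534 (p = 0.0537, adjusted p = 0.0768). For this pair r was 0.754 without SD day -24 replicate 2 and SD day -9 replicate 1, the arrays farthest out for PLIN2, and on deviations from the group means it was 0.688 with an adjusted p of 0.0621 (exact permutation). XDH by probe set 1 had r between 0.259 and 0.437 with BTN1A1, PLIN2 and MFGE8, with adjusted p between 0.175 and 0.363 by permutation. BTN1A1 and XDH, whose proteins bind each other, thus had r = 0.437 (p = 0.122, rho = 0.618, p = 0.0204, adjusted p of rho = 0.0572). MUC1 had r = 0.746 with MFGE8 (adjusted p = 0.0082, rho = 0.591, adjusted p = 0.0572) and r = 0.666 with BTN1A1 (adjusted p = 0.0283, rho = 0.508, adjusted p = 0.0836) over the 14 arrays. Both were smaller, 0.409 and 0.26, with SD day -24 replicate 2 and LD day -24 replicate 3 left out. On deviations from the group means they were 0.687 (exact permutation, adjusted p = 0.0646) and 0.722 (adjusted p = 0.0354). With XDH and PLIN2 r was 0.534 and 0.298 (adjusted p = 0.0794 and 0.342). The values were also taken on the arrays above the widest gap of MUC1 alone, a cut that does not by itself show separate sets. Over the 9 upper arrays, which are chosen by MUC1 itself, r was -0.10 with BTN1A1, -0.32 with XDH, -0.62 with PLIN2 and -0.14 with MFGE8, and the smallest permutation p, that of PLIN2, was 0.0619 (0.248 adjusted over the 4).

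Of the 5 genes, PLIN2 ran most strongly against the mean of the luminal markers, which include keratins and junction proteins of the secretory epithelium. Over 14 arrays r was -0.766 (permutation p = 0.00089, adjusted p = 0.0178 over 20 relations of the 5 genes with 4 list means) and rho was -0.741 (p = 0.00352, adjusted p = 0.0532). Within groups, on deviations from the group means, r was -0.854 (exact permutation p = 0.00386, adjusted p = 0.0386). Without SD day -24 replicate 2 and SD day -9 replicate 1 it was -0.656. SD day -9 replicate 1 had both the lowest PLIN2, 11.86, and the highest luminal mean, 10.25, and LD day -24 replicate 1 had PLIN2 of 12.70 beside the lowest luminal mean, 9.36. Of the 14 markers taken singly, 12 had a negative r with PLIN2. These markers make up the mean, so the count is not a separate piece of evidence. The share of all genes with a negative r to PLIN2 was not computed. None of the other 19 relations had an adjusted p under 0.05 for Pearson's r over the 14 arrays. The negative sign was not particular to PLIN2. With the luminal mean, BTN1A1 had r = -0.421 and rho = -0.714 (permutation, adjusted p of rho = 0.0532). On deviations from the group means its r was -0.63 (exact permutation, adjusted p = 0.146). XDH had r = -0.435 and rho = -0.393, and MFGE8 r = -0.317 and rho = -0.481, while MUC1 had r = 0.012. XDH and the mean of the milk proteins had r = 0.454 (permutation p = 0.105, adjusted p = 0.32) and rho = 0.64 (p = 0.0165, adjusted p = 0.0827). On deviations from the group means r was 0.707 (exact permutation p = 0.00169, adjusted p = 0.0338). MUC1 had a larger r with that mean over the 14 arrays, 0.652 (permutation p = 0.0112, adjusted p = 0.112), and rho = 0.688 (adjusted p = 0.0535). On deviations its r was 0.508 (exact permutation, adjusted p = 0.262). BTN1A1, MFGE8 and PLIN2 had r = 0.375, 0.355 and -0.194.

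**Figure D4:**
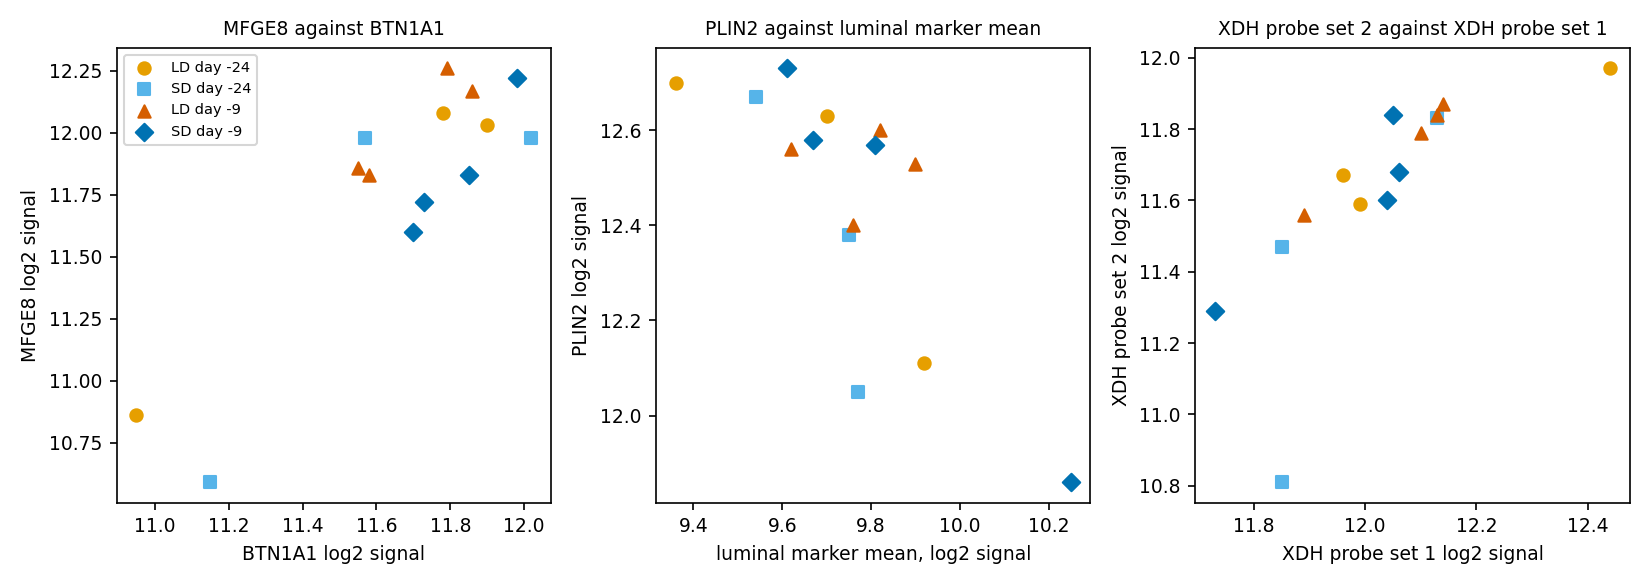
Log2 signal on both axes, 1 point per array with the groups by colour and shape: MFGE8 against BTN1A1 (left), PLIN2 against the mean of the luminal markers (middle) and XDH probe set 2 against probe set 1 (right). On the left 2 arrays lie apart at BTN1A1 of 10.95 and 11.15, in the middle 1 array combines PLIN2 of 11.86 with a luminal mean of 10.25, and on the right SD day -24 replicate 2 lies below the others at 10.81.

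Among 6240 genes at or above the median signal, the genes most like each member over the 14 arrays were named by Pearson r, as a description without a test. For BTN1A1 they were UGP2 (0.919), which makes UDP-glucose, TMEM120B (0.913) and the Wnt receptor FZD4 (0.903). XDH was followed most closely by the ferritin receptor NCOA4 (0.881), the nuclear pore gene NUP42 (0.868) and UBR3 (0.828). The nearest to PLIN2 were SH3BP4 (0.93), IFI35 (0.895) and transketolase, TKT (0.889). MFGE8 was matched by WIPI1 (0.926), an autophagy protein, mitochondrial PCK2 (0.915) and the translation release factor ETF1 (0.899). MUC1 had the unnamed locus LOC514170 (0.95), MCFD2 (0.924), a cargo receptor subunit of the early secretory pathway, and the lysosomal membrane protein LAMP2 (0.92). Of the members, BTN1A1 and MFGE8 each stood 10th in the other's order, and none was among the nearest 3 of another.

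Other proteins of the milk fat globule membrane, 14 of 17 listed genes with a probe set, gave 0 calls in every comparison, as did all further lists below. Between days in SD, 13 of the 14 lay above 0, with a median of 0.36 against -0.02 over all probe sets, and in LD 12 did, with a median of 0.18. Cell type markers moved beside them: in SD, 7 of 9 adipocyte (median 0.28), 8 of 9 myoepithelial (0.22) and 11 of 14 luminal markers (0.15) lay above 0, but 0 of 8 fibroblast (-0.15) and 1 of 8 T and NK markers (-0.15). In LD the adipocyte markers lay above 0 for 8 of 9 (median 0.18), the myoepithelial for 7 of 9 (0.26), the luminal for 10 of 14 (0.10), the fibroblast for 6 of 8 (0.13) and the T and NK markers for 3 of 8 (-0.07). The adipocyte list is not separate from the lists it stands beside. It shares CIDEA with the globule membrane list, and CIDEA, CIDEC and LIPE with the droplet list. Its genes did not move alike: in SD the day difference was 0.53 for FABP4, 0.77 for LEP and 1.21 for CIDEA, but 0.02 for ADIPOQ and -0.09 for LIPE. Several had low signal. In SD at day -24 and day -9, ADIPOQ had means of 3.50 and 3.52, LEP 3.30 and 4.07, and LIPE 4.92 and 4.83, under the array medians. FABP4 (11.27 and 11.80) and CIDEA (7.33 and 8.53) lay above them. The differences of the low genes are thus a weak reading of adipocytes. The part of the cell type markers in the differences of the globule membrane, droplet and milk protein lists was not tested. FABP3, a fatty acid carrier of the secreting cell, stood at 12.23 ± 0.63 in LD and 11.91 ± 1.15 in SD at day -24, and at 12.80 ± 0.34 and 12.78 ± 0.47 at day -9, differences of 0.57 and 0.87. ABCG2, the transporter that moves riboflavin into milk, differed between days in SD by 0.90 and MUC15, another globule mucin, by 0.59. The mean of this list was lowest on SD day -24 replicate 2 (8.54) and LD day -24 replicate 3 (8.94), the arrays where BTN1A1 and MFGE8 were lowest. SD minus LD lay below 0 for 11 of 14 at day -24 (median -0.14) and for 9 of 14 at day -9 (median -0.01).

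Lipid droplet proteins, 13 of 18 genes, lay above 0 between days for 11 in LD (median 0.23) and 8 in SD (median 0.15). CIDEA, a droplet fusion protein that is in both lists, differed by 0.98 in LD and 1.21 in SD, with SDs of up to 1.44 in a group. G0S2, an inhibitor of the lipase PNPLA2, was the lipid droplet gene of smallest p in SD minus LD at day -9, at 8.45 ± 0.59 in SD against 9.27 ± 0.30 in LD (n = 4 each), a difference of -0.82 with an unadjusted limma p of 0.0393 and no call. PLIN3, a relative of PLIN2, differed between days by 0.29 in LD. The enzymes of triacylglycerol synthesis, 14 of 20 genes, lay close to 0 throughout, with medians between -0.02 and 0.06 over the 7 comparisons.

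Of the butyrophilin relatives, 2 of 12 had a probe set. BTNL9 had a mean of 7.76 ± 0.81 at day -24 and 8.67 ± 0.27 at day -9 in SD, a difference of 0.91 that did not pass the adjusted threshold, and differed by 0.32 in LD. MOG, the myelin member of the family, differed by -0.09 in LD and 0.06 in SD. The genes of purine breakdown and of the molybdenum cofactor that XDH carries, 10 of 13, had medians between -0.04 and 0.13. Receptors and partners of MFGE8 in the clearance of dead cells, 10 of 14, had medians between -0.14 and 0.06. The apical fusion machinery, 9 of 12, had medians between -0.03 and 0.11, and the regulators of milk fat genes, 11 of 15, between -0.11 and 0.18.

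Milk proteins, 9 of 10 genes, lay above 0 between days for 9 in SD (median 0.35) and 5 in LD (median 0.13), beside the adipocyte, myoepithelial and luminal markers given above. Their mean per array was between 11.39 and 11.92 at day -24 and between 11.60 and 12.91 at day -9. The highest was SD day -9 replicate 1, the array of the highest MUC1, 10.88, and of the lowest PLIN2. GLYCAM1, a mucin-like milk protein, differed between days by 0.63 in LD and 0.79 in SD, and LPO, the peroxidase of milk, by 2.74 and 3.83 with SDs of up to 2.50 in a group.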

How the data were processed

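Mammary RNA of 14 biopsies was hybridised to Affymetrix bovine arrays. The authors deposited log2 values, 1 per probe set and array, summarised by RMA (robust multi-array average) per the submitters' processing notes, with the software and genome build not given in the sources used here. RMA normalizes arrays to a common distribution, which removes a shift shared by all probe sets. Arrays have no read depth, so the number of arrays limits the precision.

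The 112 control probe sets were left out, and limma 3.58.1 in R 4.3.3 fitted the 4 group means to 24016 probe sets without a filter. Tests were two-sided, adjusted by Benjamini-Hochberg over all probe sets in each of 7 comparisons, at 0.05. Exact permutation and correlations (100000 resamples) used numpy 2.4.6. The fit was tested on simulated data. Genes were named from the platform annotation, lists by the probe set of highest mean. For each member the 3 genes of highest r were named. From each list only genes among its 3 of smallest p in the comparison given were named, or their other day or photoperiod values. Exceptions were ADIPOQ and the adipocyte markers shared with other lists. Members and lists were chosen with earlier results of these data known. Alternatives were array weights, median centring, filters, covariates, a replicate block and leaving out arrays.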

Additional observations from a re-analysis of the deposited data

Results flagged for a closer look

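In the groups of 4 arrays, the highest or lowest value stood apart by Dixon's ratio in 3 of 12 tests of the members, where chance marks about 1 in 20. XDH probe set 1 was lowest in LD day -9 replicate 2, at 11.89 against 12.10 for the nearest array. It was also lowest in SD day -9 replicate 2, at 11.73 against 12.04. MUC1 was highest in LD day -9 replicate 3, at 10.49 against 10.25, in the group whose 4 values lay within 0.27. The cause was not tested.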

How the results depend on the processing

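Over 27 alternative settings, 635 of 678 recomputed member differences kept their direction and 43 changed sign. Many of them could not change, so this share does not measure robustness. The intensity trend, the robust prior and the filter leave a difference as it was. So does leaving out an array of neither group compared. None of the recomputed differences passed the threshold, and the smallest adjusted p was 0.466 (limma). All changes of sign concern differences whose intervals include 0. With array weights, SD minus LD at day -24 was 0.048 for PLIN2 and 0.074 for MFGE8, at day -9 it was 0.026 for PLIN2, and the day difference of XDH probe set 1 was 0.041 in LD and -0.066 in SD. With arrays centred on their medians, the day difference was -0.032 for XDH probe set 2 and -0.013 for PLIN2 in LD, and -0.007 for XDH probe set 1 in SD. With the 3-prime to 5-prime covariate, SD minus LD at day -24 was 0.012 for MFGE8. With that covariate the day difference in LD was -0.021 for XDH probe set 2 and -0.008 for PLIN2, and in SD -0.023 for BTN1A1, -0.01 for XDH probe set 1 and -0.129 for PLIN2. With the adipocyte marker mean as covariate it was -0.081 for XDH probe set 2 and -0.007 for PLIN2 in LD, and -0.051 for XDH probe set 1 in SD. In another setting SD day -24 replicate 3 and LD day -9 replicate 4 were left out, taken as arrays of low signal in some probe sets. Their medians were 6.57 and 6.56, and LD day -24 replicate 1, of the lowest median (6.43), was kept. In that setting the day difference was -0.001 for XDH probe set 2 in LD and -0.018 for XDH probe set 1 in SD. There 1 probe set was called between days in SD. The causes were not tested.

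With the replicate number as a block, the day difference in LD was -0.028 for XDH probe set 2 and -0.008 for PLIN2, and no call changed, though the members with an unadjusted p under 0.05 went from 0 to 1 for SD minus LD averaged over days and from 1 to 0 for the days averaged over photoperiods. Same-numbered arrays of different groups had correlations of their deviations between -0.342 and 0.331 over 19 pairs, with a median of 0.097 and 9 over 0.1, against a median of -0.056 and 11 of 54 over 0.1 for different numbers, and 7 of 14 arrays correlated best with their own number. This leans toward a shared number, as a hint from the data, but a shared number need not be a shared cow. Many of these pairs join LD to SD arrays, which cannot be 1 cow with 1 photoperiod. Between days within a photoperiod, same-numbered arrays had 0.331, 0.187 and -0.313 in LD and 0.042, 0.219 and 0.246 in SD. The block also gives LD and SD arrays of the same number 1 shared term, so it does not stand for a cow. Since not every pair was over 0.1 and the labels state no pairing, the block was kept as an alternative.

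Leaving out 1 array at a time, SD minus LD at day -24 ran from -0.263 to 0.246 for BTN1A1, -0.297 to 0.043 for PLIN2 and -0.532 to 0.329 for MFGE8, and at day -9 from -0.184 to 0.103 for PLIN2. Day -9 minus day -24 in LD ran from -0.147 to 0.329 for BTN1A1, -0.152 to 0.089 for XDH probe set 1, -0.052 to 0.135 for XDH probe set 2, -0.141 to 0.151 for PLIN2 and -0.022 to 0.585 for MFGE8. In SD it ran from -0.021 to 0.118 for XDH probe set 1, -0.051 to 0.459 for XDH probe set 2, -0.088 to 0.259 for PLIN2 and -0.141 to 0.556 for MFGE8. The count of all probe sets called ran from 0 to 1 for SD minus LD averaged over days (1 without SD day -9 replicate 3) and from 0 to 1 for the days in SD (1 without SD day -24 replicate 3), and stayed at 0 in the other 5 comparisons. With 3 or 4 arrays a group, the intervals are wide, and a p above the threshold does not show that groups were alike.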
